A study of Mus musculus with 16 samples.

Results

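The zinc finger genes numbered Zfp900 to Zfp999 were examined in ATAC-seq peak lists of mouse male germ cells. They were chosen by symbol alone, as the autosomal protein-coding genes of that number range of a RefSeq table (GRCm38.p6), and 62 of 20665 autosomal protein-coding genes met the rule. ATAC-seq marks open chromatin, since a transposase inserts sequencing adapters where DNA is accessible, and a peak is a stretch where insertions pile up.

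The germ cells came from testes of Mvh-Venus transgenic mice, whose fluorescent reporter is driven by a germ cell gene, and every group carried it. Groups were Morc1 (+/-) heterozygotes and Morc1 (-/-) knockouts at E13.5 or E16.5 of embryonic life, at birth (P0) or shortly after it (P3), with 2 samples in each of 8 groups. The controls were heterozygous, and no wild-type group was among the samples. Strain background and exact age beyond the stage were not given in the sources used here.

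One peak list was given per group, with positions only and no height or score, so no value below has a spread between samples and no difference was tested. Both P0 lists held identical rows, as did both P3 lists. Each pair was used once with no genotype, so genotypes could be compared only in the embryo. The 6 distinct lists held 40448 (E13.5 heterozygous), 39559 (E13.5 knockout), 53687 (E16.5 heterozygous), 57117 (E16.5 knockout), 67258 (P0) and 44760 (P3) peaks. Peaks met 6 of 7 germ cell marker genes in every list, 1 or 2 of 4 Sertoli cell markers, 1 of 4 Leydig cell markers, 1 of 3 endothelial markers and 0 or 1 of 3 blood markers. Over all genes, 59.5% (P3) to 64.4% (P0) had a gene-end peak in a list. The germ cell marker without one was Tdrd1. Of the Sertoli cell markers, Sox9 and Amh had no gene-end peak in any list, Wt1 had one in every list but P3 and Dhh had one in all 6. The Leydig cell marker Cyp11a1 and the endothelial marker Tek also had one in all 6, and the blood marker Cd52 had one at P0 only. The part of other cells in the results was not tested. Morc1 itself had a gene-end peak in all 6 lists, the knockout lists included. Peaks at the ends of Morc1 do not check the genotype, because the deleted part of the gene was not given in the sources used here. In bulk cells, fewer cells with an open site and a less open site in each cell cannot be told apart.

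Many genes of this number range encode KRAB zinc finger proteins. Arrays of zinc fingers in such a protein bind particular DNA sequences, often within retrotransposons, and the KRAB domain recruits the corepressor TRIM28. TRIM28 in turn brings the histone methyltransferase SETDB1 and heterochromatin proteins, so that the bound element is silenced. Rodent genomes carry large clusters of these genes that arose by repeated duplication, and neighbours within a cluster can be nearly identical. MORC1 acts in transposon silencing in male germ cells, in the window of development when DNA methylation is erased and rebuilt.

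Promoter sequences were taken from RefSeq (GRCm38.p6), from 250 bases before to 50 after the annotated start, for the members whose start state carried the comparisons below. The set holds a start with a peak at E13.5 in the heterozygous list alone (Zfp937), starts that lacked a peak at E16.5 in the heterozygous list alone (Zfp951, Zfp943 and Zfp994), a start with a nearby peak at P3 alone (Zfp932) and a start with a peak in every list (Zfp956). All are written 5′ to 3′ on the strand of the gene, and capitals mark CG, the dinucleotide that carries DNA methylation.
Zfp937: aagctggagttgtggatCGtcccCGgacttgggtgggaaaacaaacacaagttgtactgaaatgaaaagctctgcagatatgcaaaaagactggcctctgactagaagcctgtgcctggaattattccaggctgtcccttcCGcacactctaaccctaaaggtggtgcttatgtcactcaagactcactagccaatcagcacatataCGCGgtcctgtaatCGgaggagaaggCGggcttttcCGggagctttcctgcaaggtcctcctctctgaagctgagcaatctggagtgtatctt
Zfp951: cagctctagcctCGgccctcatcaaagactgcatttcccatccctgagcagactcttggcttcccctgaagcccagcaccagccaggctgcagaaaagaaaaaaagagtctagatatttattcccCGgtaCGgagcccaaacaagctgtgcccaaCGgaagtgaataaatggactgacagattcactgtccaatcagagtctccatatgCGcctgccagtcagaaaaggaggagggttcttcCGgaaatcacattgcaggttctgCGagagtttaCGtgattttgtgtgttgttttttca
Zfp943: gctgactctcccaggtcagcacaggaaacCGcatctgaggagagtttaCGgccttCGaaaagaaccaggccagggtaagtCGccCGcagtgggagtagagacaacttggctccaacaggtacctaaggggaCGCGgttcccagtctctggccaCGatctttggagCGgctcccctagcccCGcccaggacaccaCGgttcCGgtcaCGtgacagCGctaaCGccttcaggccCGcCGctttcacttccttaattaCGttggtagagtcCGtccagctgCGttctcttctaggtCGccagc
Zfp994: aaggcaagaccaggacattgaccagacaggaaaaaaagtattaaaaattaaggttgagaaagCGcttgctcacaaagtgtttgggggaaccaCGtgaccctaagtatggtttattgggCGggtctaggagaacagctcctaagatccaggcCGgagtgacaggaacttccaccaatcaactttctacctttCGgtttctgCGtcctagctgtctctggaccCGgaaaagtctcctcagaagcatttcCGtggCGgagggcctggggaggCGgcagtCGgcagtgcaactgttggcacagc
Zfp932: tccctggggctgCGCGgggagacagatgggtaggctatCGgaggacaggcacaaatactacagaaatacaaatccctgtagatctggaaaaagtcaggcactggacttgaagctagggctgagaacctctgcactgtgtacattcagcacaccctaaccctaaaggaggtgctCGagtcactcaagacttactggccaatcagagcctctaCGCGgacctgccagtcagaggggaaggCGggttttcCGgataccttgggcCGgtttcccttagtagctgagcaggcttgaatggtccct
Zfp956: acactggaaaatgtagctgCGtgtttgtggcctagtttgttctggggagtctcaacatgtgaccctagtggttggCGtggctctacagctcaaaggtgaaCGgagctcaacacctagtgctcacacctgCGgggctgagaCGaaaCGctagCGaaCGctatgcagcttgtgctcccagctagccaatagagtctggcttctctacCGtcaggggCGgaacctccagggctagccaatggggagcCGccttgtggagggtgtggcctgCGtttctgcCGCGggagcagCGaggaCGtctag
They lie at chr2:150217849-150218148 (plus strand), chr5:104860019-104860318 (minus), chr17:21962309-21962608 (plus), chr17:22225565-22225864 (minus), chr5:109996260-109996559 (plus) and chr6:47953140-47953439 (plus), in the order printed. CG counts in these windows were 8 for Zfp937, 8 for Zfp951, 21 for Zfp943, 11 for Zfp994, 9 for Zfp932 and 16 for Zfp956.

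Near-identity within the chromosome 2 cluster is shown by the promoters of Zfp966 and Zfp967, a pair chosen after their values were seen.
Zfp966: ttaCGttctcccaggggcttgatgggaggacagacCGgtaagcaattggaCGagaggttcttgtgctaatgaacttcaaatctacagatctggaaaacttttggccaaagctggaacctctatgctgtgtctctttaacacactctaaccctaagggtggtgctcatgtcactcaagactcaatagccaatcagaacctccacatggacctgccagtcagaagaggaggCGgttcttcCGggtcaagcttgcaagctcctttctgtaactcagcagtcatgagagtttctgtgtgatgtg
Zfp967: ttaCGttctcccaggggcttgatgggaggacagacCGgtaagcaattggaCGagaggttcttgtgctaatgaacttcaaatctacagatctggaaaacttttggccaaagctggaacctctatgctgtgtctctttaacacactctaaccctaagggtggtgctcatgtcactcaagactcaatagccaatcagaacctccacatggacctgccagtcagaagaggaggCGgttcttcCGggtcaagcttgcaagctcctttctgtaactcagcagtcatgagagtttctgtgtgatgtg
Zfp966 lies at chr2:175931051-175931350 on the minus strand and Zfp967 at chr2:176520754-176521053 on the plus strand, and the 2 windows differ at 0 of 300 positions. Each holds 5 CG. Zfp968 and Zfp973 of the same cluster differ at 1 of 300 positions, and Zfp965 and Zfp971 at 9. In the chromosome 4 cluster, Zfp980 and Zfp979 differ at 45 of 300 positions, while alignment with blastn matched 273 of 300 bases (91.0%). Zfp979 is listed as Ssm1b, a modifier of transgene methylation.

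A gene was counted as having a gene-end peak when a peak overlapped, by at least 1 bp, a window of 1000 bp on either side of an outer end of the gene. By this count, a smaller share of the 62 members had a gene-end peak than of the 298 lower-numbered genes Zfp1 to Zfp899. In the E13.5 heterozygous list, 35 members had one (56.5%), against 60.0% of all genes and 80.2% of Zfp1 to Zfp899. The E13.5 knockout list gave 34 members (54.8%), against 60.4% and 79.2%. At E16.5 the heterozygous list gave 31 (50%, against 61.1% and 80.5%) and the knockout list 36 (58.1%, against 62.0% and 79.2%). P0 gave 34 (54.8%, against 64.4% and 81.9%) and P3 gave 36 (58.1%, against 59.5% and 78.9%). In each list the share of members with a gene-end peak was below that of all genes, and it was lowest at E16.5 in heterozygotes. A second count took peaks within 1 kb of an annotated start, for the 55 members with a promoter entry. It gave 61.8% of members and of all genes at E13.5 in heterozygotes. At P3 it gave 61.8% of members against 61.1% of all genes, and in the other lists a lower share of members.

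Most members held one state in all lists. A gene-end peak was present in all 6 lists at 29 members (46.8%), where 53.1% of all genes and 73.2% of Zfp1 to Zfp899 had one. No list held one at 24 members (38.7%), where the share was 30.5% of all genes and 13.8% of Zfp1 to Zfp899. Between these lay 3 members with a peak in 1 list, 1 in 4 lists and 5 in 5 lists. A single state over all lists was therefore held by 53 members (85.5%), close to the 83.7% of all genes.

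**Figure D1:**
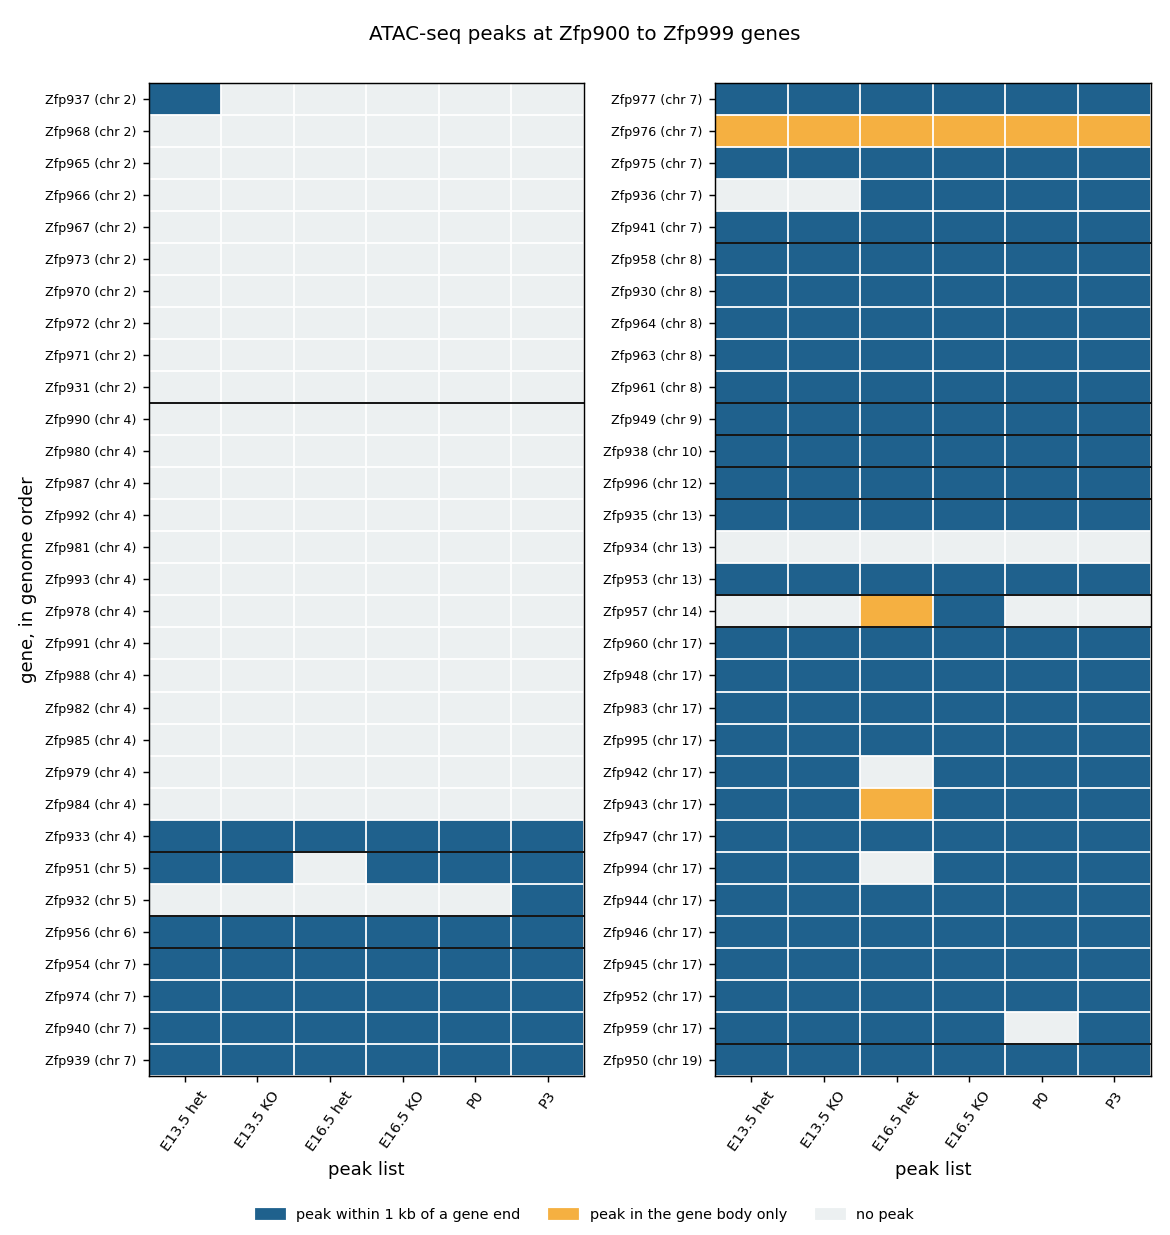
State of each of the 62 genes (rows, in genome order, with chromosome) in the 6 distinct peak lists (columns). Dark blue marks a peak within 1 kb of a gene end, orange a peak in the gene body only and grey no peak. The grey block on chromosomes 2 and 4 holds 22 genes with no peak in any list. In the E16.5 heterozygous column Zfp951, Zfp942 and Zfp994 are grey and Zfp943 is orange. These genes are dark blue in the other 5 lists.

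Members with and without peaks were split by genomic place. A cluster was taken as 3 or more members on 1 chromosome with at most 1 Mb between neighbours, which gave 5 clusters with 9 genes on chromosome 2, 14 on chromosome 4, 4 on chromosome 7, 3 on chromosome 8 and 10 on chromosome 17, and left 22 dispersed genes. Of the 23 genes in the chromosome 2 and chromosome 4 clusters, 22 had no peak at an end or in the body in any list. The exception was Zfp933, the last member of the chromosome 4 cluster, with a peak at its start in all 6 lists. Outside these clusters, 34, 33, 30, 35, 33 and 35 of 39 members had a gene-end peak in the lists from E13.5 heterozygous to P3 in the order above (76.9% to 89.7%), and 28 (71.8%) had one in all 6. These clusters were set apart after their peaks were seen, so the higher share of the rest follows in part from that choice. Zfp1 to Zfp899, with no gene left out, stood at 73.2%. Counted within 1 kb of an annotated start, 27 of 36 members outside the clusters (75.0%) had a peak in all 6 lists. The share of Zfp1 to Zfp899 was then 82.9%.

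The chromosome 2 members were Zfp968, Zfp965, Zfp966, Zfp967, Zfp973, Zfp970, Zfp972, Zfp971 and Zfp931, over chr2:175372034-178078425 (2.71 Mb). No list had a peak anywhere in this span. Flanks of 2 Mb on each side held 18.2, 20, 11.8, 12.0, 16.2 and 18.0 peaks per Mb in the 6 lists. None of the 17 other protein-coding genes inside the span had a gene-end peak either. Without a peak in any list, the stretch ran on to chr2:174949058-178101753 (3.15 Mb), the second longest on the autosomes, where the median gap between peaks was 13.6 kb.

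The chromosome 4 members without a peak were Zfp990, Zfp980, Zfp987, Zfp992, Zfp981, Zfp993, Zfp978, Zfp991, Zfp988, Zfp982, Zfp985, Zfp979 and Zfp984. They lay in the peak-free stretch chr4:145387126-147848047 (2.46 Mb), the third longest. Zfp993 alone spans 478623 bp of it. Zfp982 has been described as a regulator of the embryonic stem cell state. Across the cluster span (2.34 Mb) each list had 1 peak, that of Zfp933, while the flanks held 22.5, 24, 16.2, 18.5, 23.8 and 17.8 peaks per Mb. The 4 other protein-coding genes in the span, Gm13212, Zfp600, Rex2 and Zfp534, had no gene-end peak. Zfp933 sat at the edge, with peak centres from -159 to 120 bp of its start, negative values being upstream.

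**Figure D2:**
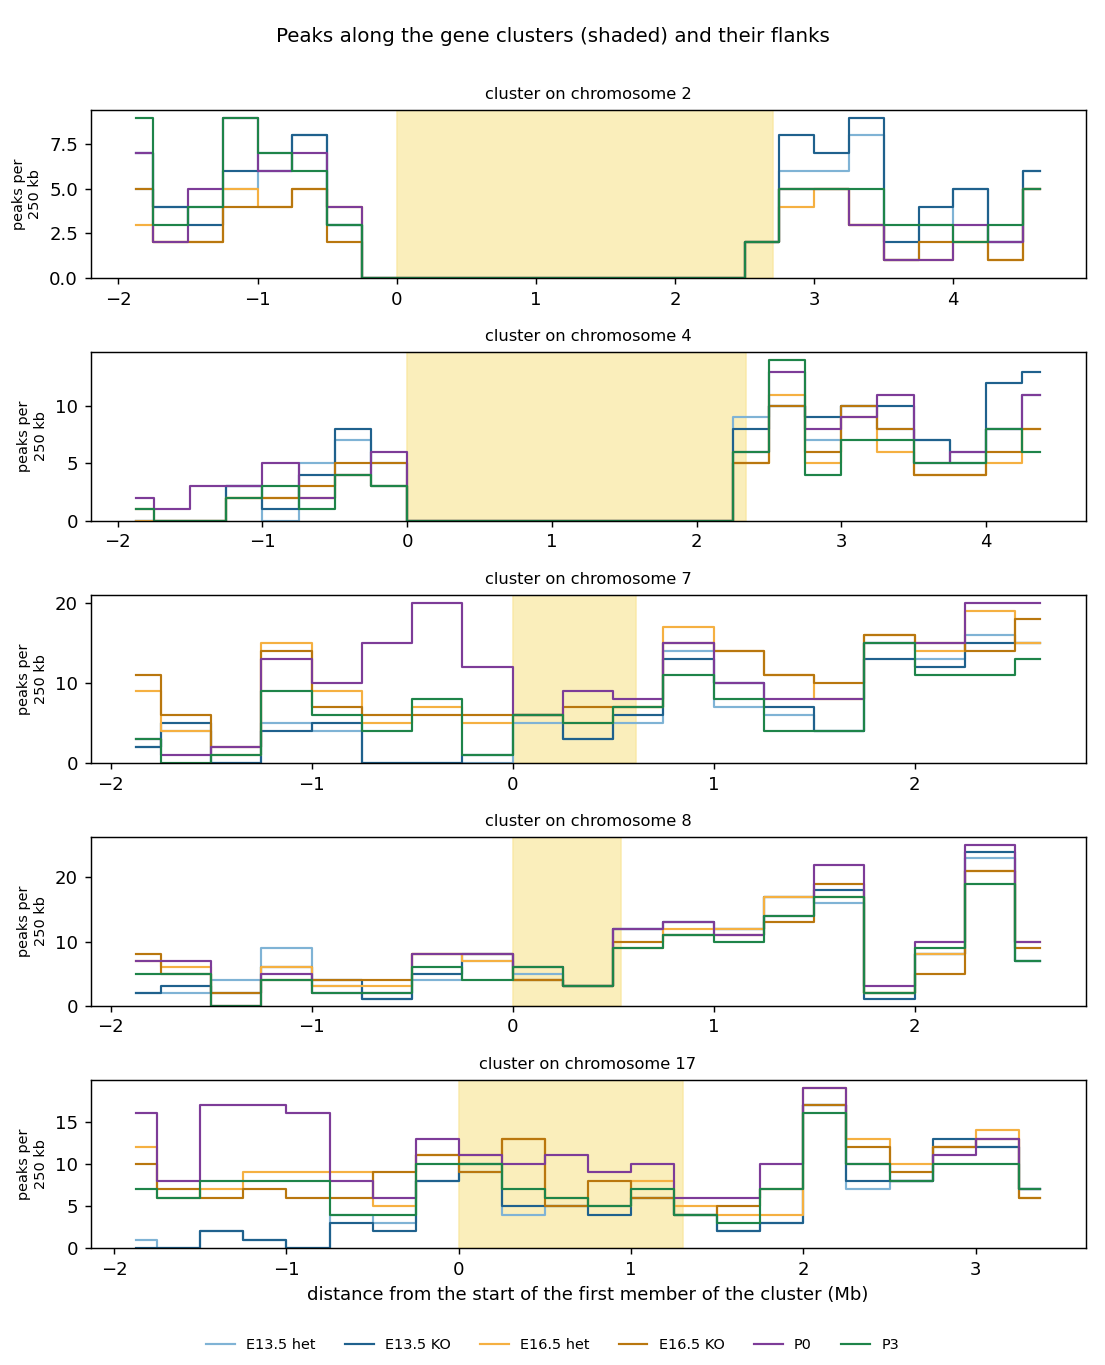
Peaks per 250 kb along each cluster (shaded, from the first member's start to the last member's end) and 2 Mb on each side, 1 line per list; the x axis is the distance from the first member's start in Mb. Lines lie at 0 across nearly all of the chromosome 2 and 4 clusters, and the rise at the right edge of their shading comes from the last bin, which runs past the last member. On chromosome 4 this bin also holds the Zfp933 peak, which lies inside the cluster.

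The chromosome 17 cluster contrasts with these in every list. Its 10 members, Zfp948, Zfp983, Zfp995, Zfp942, Zfp943, Zfp947, Zfp994, Zfp944, Zfp946 and Zfp945, all had a gene-end peak in 5 lists, and 7 of them did in the E16.5 heterozygous list. Peak density in the span (1.30 Mb) was 23.8, 24.6, 34.6, 33.0, 41.5 and 28.4 per Mb, beside 21.0, 20.8, 37.2, 35.2, 45.8 and 30.8 in the flanks. All 3 members on chromosome 8 (Zfp930, Zfp964 and Zfp963) had a peak in every list. On chromosome 7, Zfp977 and Zfp975 had one in every list, Zfp936 from E16.5 on, and Zfp976 in none of them by the gene-end rule. Zfp976 did have a peak in all 6 lists 20 to 51 bp from its annotated start, which lies at 42642604, inside the gene's outer end at 42644267.

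Among dispersed members, 16 of 22 had a gene-end peak in every list: Zfp956, Zfp954, Zfp974, Zfp940, Zfp939, Zfp941, Zfp958, Zfp961, Zfp949, Zfp938, Zfp996, Zfp935, Zfp953, Zfp960, Zfp952 and Zfp950. Zfp934 on chromosome 13 had no peak at its ends or in its body in any list. The other 5, Zfp937, Zfp932, Zfp957, Zfp951 and Zfp959, changed between lists and are described below.

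**Figure D3:**
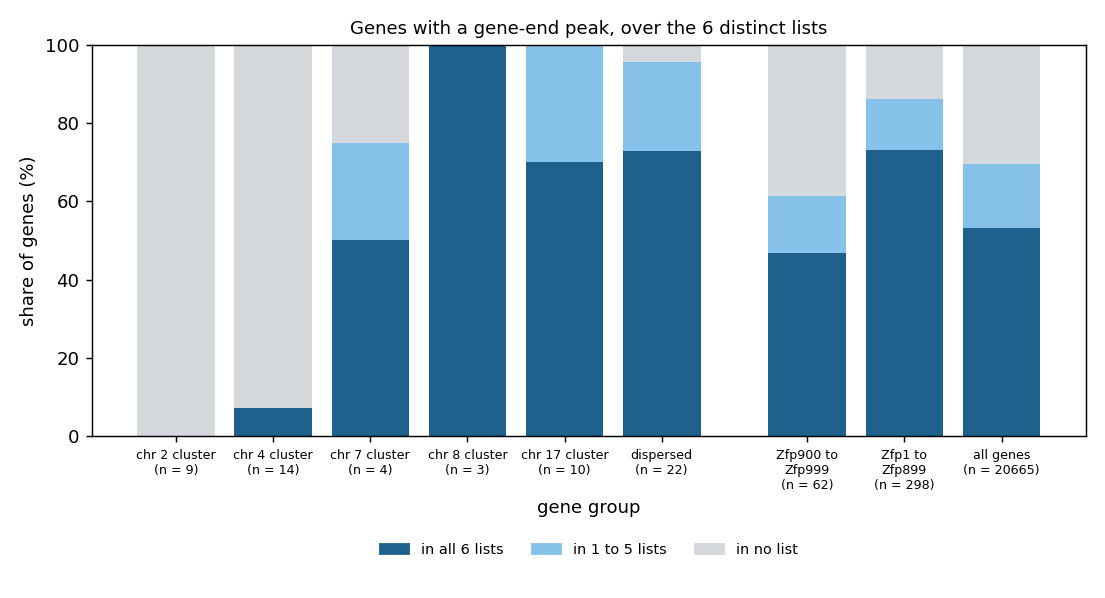
Share of genes (percent) with a gene-end peak in all 6 lists, in 1 to 5 and in none, for each group of members and for the comparison sets, with the number of genes under each bar. The chromosome 2 and 4 clusters stand at 0% and 7.14% in all 6 lists, and the other member groups between 50% and 100%.

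Genotypes were compared first at E13.5, to ask whether chromatin at these genes differed without Morc1. No member had a gene-end peak in the knockout list alone, where 2.06% of all genes did. In the heterozygous list alone there was 1, Zfp937, where 1.69% of all genes met that rule. Its peak at chr2:150217606-150218106 was centred at -243 bp from the start. In the other 5 lists the peak centre nearest to that start was 71.2 to 81.4 kb from it.

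At E16.5, 5 members had a gene-end peak in the knockout list and not in the heterozygous list: Zfp951, Zfp957, Zfp942, Zfp943 and Zfp994. They are 8.06% of members, where 2.92% of all genes and 2.35% of Zfp1 to Zfp899 met the same rule. In the opposite direction there were 0 members, against 2.01% of all genes and 3.69% of Zfp1 to Zfp899. The knockout list was also the longer of the pair, at 57117 against 53687 peaks, and its part in the count was not tested. Zfp942 and Zfp943 start beside each other and share 1 peak, so the 5 genes rest on 4 peaks.

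Peaks at 3 of these 4 places were missing from the E16.5 heterozygous list alone. Zfp951 had its start peak at chr5:104859731-104860231 at E13.5 in heterozygotes, at chr5:104859758-104860258 in E13.5 knockouts, at chr5:104859725-104860225 in E16.5 knockouts and again at P0, and at chr5:104859694-104860194 at P3. In the E16.5 heterozygous list the peak centre nearest to the Zfp951 start was 61.0 kb from it, at chr5:104798777-104799277, beyond the other end of the gene at 104802246. The shared start of Zfp942 and Zfp943 had peaks at chr17:21962471-21962971, chr17:21962477-21962977, chr17:21962489-21962989, chr17:21962555-21963055 and chr17:21962652-21963152 in the other 5 lists, and in the E16.5 heterozygous list the nearest peak centre was 5.57 kb from the start of Zfp942 and 5.48 kb from that of Zfp943, within the body of Zfp943. For Zfp994 the 5 peaks began between 22225445 and 22225583 on chromosome 17, and in the E16.5 heterozygous list the nearest peak centre was 28.9 kb from its start.

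A gene-end peak in every list except E16.5 heterozygous was found at 4 members (6.45%), 1 of 298 Zfp1 to Zfp899 genes (0.336%) and 0.750% of all genes. Missing from the E13.5 heterozygous list alone were 0 members (0.518% of all genes), from E13.5 knockout alone 0 (0.479%), from E16.5 knockout alone 0 (0.329%), from P0 alone 1 (0.368%) and from P3 alone 0 (1.21%). The member missing from P0 alone was Zfp959, whose peak at chr17:55891706-55892206 in the E13.5 heterozygous list lay inside the gene, beyond 500 bp of its outer end, and had counterparts starting at 55891702 to 55891717 in the other 4 lists. In the P0 list the nearest peak centre was 24.2 kb from the start of Zfp959. The opposite pattern, a gene-end peak in a single list, was seen at 1 member for E13.5 heterozygous (Zfp937; 0.440% of all genes), 0 for E13.5 knockout (0.402%), 0 for E16.5 heterozygous (0.465%), 1 for E16.5 knockout (Zfp957; 0.436%), 0 for P0 (1.80%) and 1 for P3 (Zfp932; 0.247%).

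Zfp957 differed from the other E16.5 cases. Its knockout peak at chr14:79212512-79213012 lay at the far end of the gene, not at the start, and no other list had a gene-end peak there. Both E16.5 lists, and no other list, had a peak in its body, 21425 bp after the start in heterozygotes and 21582 bp in knockouts.

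Comparing stages within heterozygotes, from E13.5 to E16.5 1 member gained a gene-end peak (Zfp936; 4.66% of all genes gained) and 5 lost one (Zfp937, Zfp951, Zfp942, Zfp943 and Zfp994; 3.54% of all genes lost). Within knockouts over the same interval, 2 gained (Zfp936 and Zfp957; 4.66% of all genes) and 0 lost (2.99%). The heterozygous and knockout changes were not tested against each other. From E16.5 heterozygotes to P0, 4 members gained a peak (Zfp951, Zfp942, Zfp943 and Zfp994; 5.37% of all genes) and 1 lost it (Zfp959; 2.15%). From E16.5 knockouts to P0, 0 gained (4.59%) and 2 lost (Zfp957 and Zfp959; 2.28%). Both comparisons with P0 share the P0 list. From P0 to P3, 2 members gained (Zfp932 and Zfp959; 1.23%) and 0 lost (6.09%).

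Zfp932, which represses endogenous retroviruses in embryonic stem cells, had a gene-end peak in the P3 list alone. It lay at chr5:109995438-109995938, centred at -822 bp from the start and outside the promoter window printed above. In the other lists the nearest peak centre was 27.0 to 61.7 kb from the start. Zfp936 had a peak at its outer 5′ end from E16.5 on, at chr7:43113883-43114383 in heterozygotes, chr7:43113891-43114391 in knockouts, chr7:43113919-43114419 at P0 and chr7:43113850-43114350 at P3. The start in the promoter table lies 63.4 to 63.5 kb farther into the gene and had no peak in any list.

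Start-side peaks of members lay at similar positions in the lists that held them. No value for other genes stands beside these distances, so they do not set the members apart. Over the 6 lists, 189 start-side peaks at 34 members had their centre within 1 kb of an annotated start, and 171 of them (90.5%) within 250 bp. The median centre was 9 bp after the start, with a range from -822 bp (Zfp932) to 363 bp. For 27 members with a start-side peak in all 6 lists, the distance between the leftmost and the rightmost centre had a median of 50 bp. It was smallest at Zfp956 (20 bp) and largest at Zfp933 (279 bp). For Zfp956 the centres lay 20, 2, 8, 0, 8 and 8 bp after the start.

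**Figure D4:**
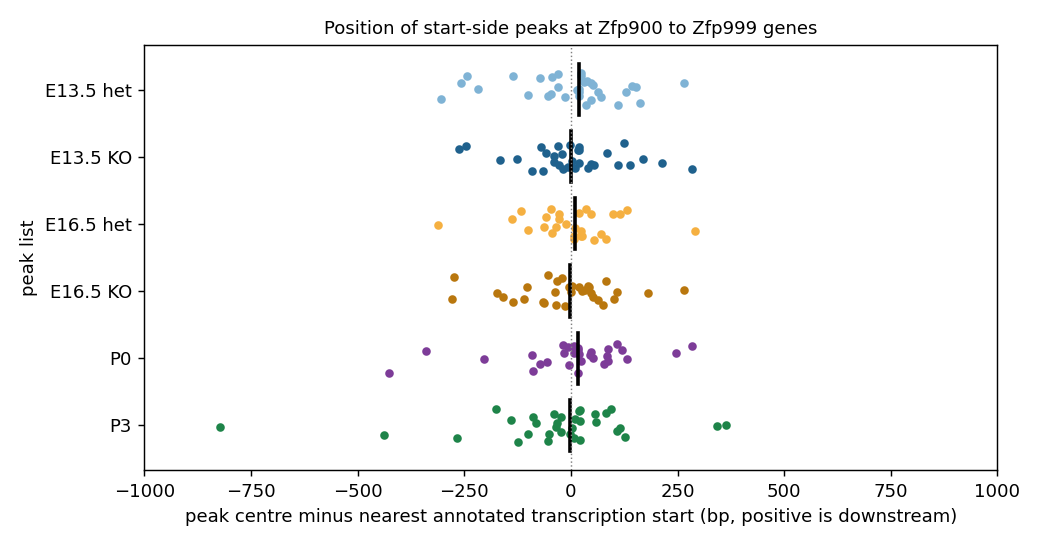
Distance in bp from the nearest annotated start to the centre of each start-side peak, 1 point per member and list, with the vertical bar at the median of the points shown. Points gather within 250 bp of the start in every list (171 of 189), and the 4 peaks of Zfp936, more than 63 kb from its annotated start, lie outside the axis.

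Away from the ends, members had few peaks. A peak in the body beyond the end windows was found at 7 (11.3%), 6 (9.68%), 8 (12.9%), 7 (11.3%), 8 (12.9%) and 6 (9.68%) members in the 6 lists. Of all genes longer than the windows, 36.7%, 36.7%, 34.9%, 36.3%, 37.2% and 32.3% had one. The median gene length was 23.3 kb for members and 21.4 kb for all genes. Per Mb of body, members held 4.05, 3.60, 4.95, 4.50, 4.05 and 3.60 peaks and Zfp1 to Zfp899 held 20, 20.5, 20.5, 21.7, 22.3 and 17.1. With the chromosome 2 and 4 clusters left out, members held 9.39, 8.35, 10.4, 10.4, 8.35 and 8.35 per Mb, more than 1.5 times the value with them and still below the 12.1 to 15.8 of all genes.

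More than 1 kb from any annotated start, 36 body peaks were found over 9 members, with the 6 lists added up. A site present in several lists is counted once for each. No value for all genes stands beside this count. Zfp939 had one 6371 to 6475 bp after its start in all 6 lists. Zfp948 had one 12820 to 12892 bp after its start in all 6, and Zfp943 one 5459 to 5495 bp after its start in all 6. Zfp943 had another 9548 to 9663 bp after its start in 4 lists (E13.5 knockout, both of E16.5 and P3), and a further one, 23068 and 23145 bp after the start, in both E16.5 lists. In the E16.5 heterozygous list, where Zfp943 lacked its start peak, the internal peak was present. Zfp996 had a peak 3484 to 3562 bp after its start from E16.5 on, and Zfp944 one 8467 and 8476 bp after its start at E13.5 only, in both genotypes. Between genotypes, the body state differed at 1 member at E13.5, Zfp950, with body peaks in the heterozygous list alone (4.10% of all genes; 0 members and 4.11% in the knockout alone). At E16.5 it differed at 1 member, Zfp933, in the heterozygous list alone (3.68%; 0 members and 5.08% in the knockout alone), where the start peak crossed the window boundary. Zfp940 and Zfp953 had body peaks at P0 only.

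Promoter sequence was compared with peak state to describe what the members share. An entry in the promoter table was matched for 55 members. The other 7 are Zfp990, Zfp992, Zfp978, Zfp991, Zfp930, Zfp934 and Zfp960. A 50-base stretch of a promoter was called repeated when it also stood at another genome position within the table, which measures recent duplication among promoters only. Of the 55, 27 (49.1%) held at least 1 repeated stretch, where 5.28% of Zfp1 to Zfp899 and 8.11% of all genes did. Chromosome 2 promoters were repeated over a median of 100% of their stretches and chromosome 4 promoters over 1.79%. Zfp972, with 0% repeated, had no peak, so repetition by this measure did not mark every chromosome 2 member.

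Members with a peak within 1 kb of an annotated start in all 6 lists held a repeated stretch in 5 of 28 cases, members with such a peak in 1 to 5 lists in 6 of 7 and members with none in 16 of 20. Over all genes, 0.725% of those with a start peak in all 6 lists and 23.6% of those with none held one. Zfp937 had 27.9% of stretches repeated, Zfp951 33.1%, Zfp942 80.1%, Zfp943 82.1%, Zfp994 10.4% and Zfp959 32.7%. Zfp932 had 0%. Zfp944, with 70.1% repeated, had its start peak in all 6 lists. Over all autosomal genes, a start peak in all 6 lists was found at 60.6% of 15123 promoters with no repeated stretch. It was found at 7.86% of 776 with under 50% repeated, and at 1.08% of 558 with 50% or more. Of all genes with any start peak, 2066 of 11236 (18.4%) with no repeated stretch had it in 1 to 5 lists only. With under 50% repeated the count was 61 of 122, and with 50% or more it was 5 of 11. For members these counts were 1 of 24, 4 of 8 and 2 of 3. Zfp1 to Zfp899 gave 19 of 220, 0 of 2 and 0 of 1. Reads from identical sequences cannot be placed uniquely by alignment, and how the authors treated such reads was not given in the sources used here. Its part in the missing peaks was not tested.

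**Figure D5:**
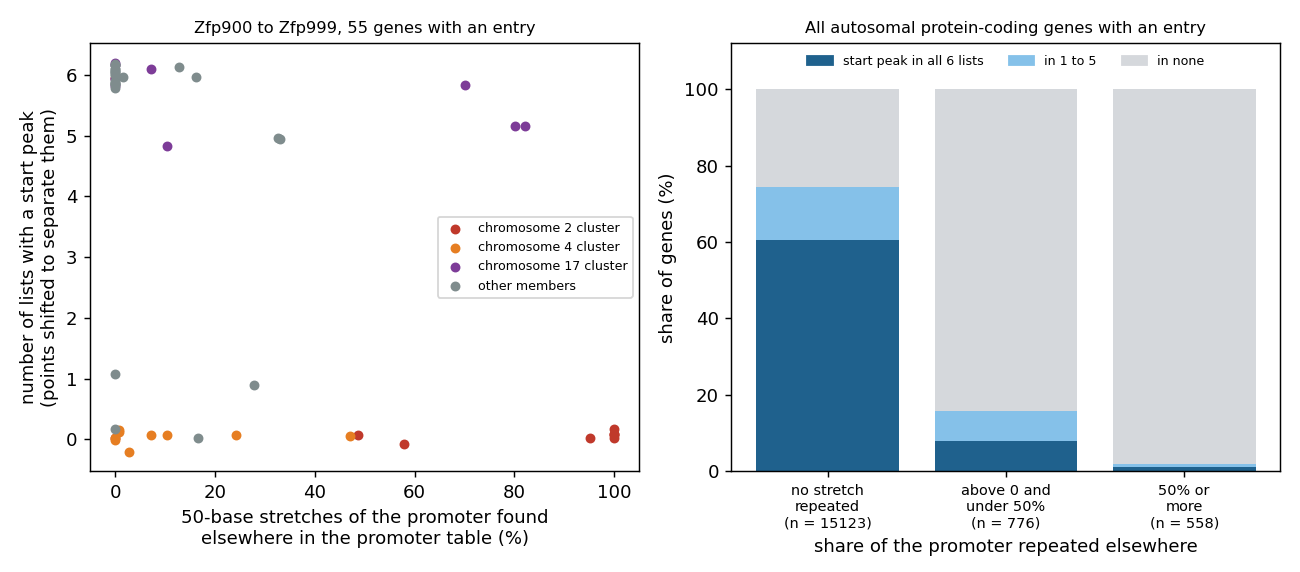
Left, each member's share of 50-base promoter stretches found elsewhere in the promoter table (percent) against the number of lists with a start peak, with points shifted vertically to separate them. Right, share of all autosomal protein-coding genes with a start peak in all 6 lists, in 1 to 5 and in none, by the repeated share of the promoter; peaks in all 6 lists fall from 60.6% to 7.86% and 1.08%.

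CG counts stood lower in members without a start peak, most of which lie in the chromosome 2 and 4 clusters. The median number of CG in 300 bases was 9 for members with a start peak in all 6 lists, 11 for those with one in 1 to 5 lists and 4.50 for those with none. Over all genes it was 22 with a start peak in all 6 lists and 2 with none. Zfp1 to Zfp899 had a median of 15 against 8 for all members with an entry.

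Motifs were searched on both strands of the 300-base windows, as letters only. CCAAT was found in 42 of 55 member promoters (76.4%), 44.3% of Zfp1 to Zfp899 and 39.1% of all genes, and it stood in 9 of 9 chromosome 2 promoters and 8 of 10 on chromosome 4. By start state it was in 19 of 28 members with a peak in all 6 lists (67.9%) and 18 of 20 with none (90.0%). Over all genes these shares were close to each other, at 39.5% and 40.7%. Outside the chromosome 2 and 4 clusters, 1 of 2 members with no start peak held it. GGGCGG was found in 20 members (36.4%; Zfp1 to Zfp899 45.5%, all genes 47.3%), with 0 of 9 on chromosome 2 and 7 of 10 on chromosome 4. CCGGAAG was found in 14 (25.5%; Zfp1 to Zfp899 22.4%, all genes 12.3%), with 6 of 9 on chromosome 2 and 0 of 10 on chromosome 4. TGACGTCA was found in 1 member (1.82%; Zfp1 to Zfp899 3.25%, all genes 2.40%). TATAAA was found in 0 members, 7.32% of Zfp1 to Zfp899 and 2228 of 16457 promoters of all genes.

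Most of the 10 chosen partners through which KRAB zinc finger proteins silence their targets had a gene-end peak in every list. Over all genes, 53.1% had one in all 6 lists and 30.5% in none. Trim28, Setdb1, Atf7ip (a SETDB1 cofactor), Cbx1, Cbx3, Cbx5 (heterochromatin proteins), Smarcad1, Morc3 and Uhrf1 had a gene-end peak in all 6 lists, 9 of 10 genes. Dnmt1, the maintenance DNA methyltransferase, had one in the E16.5 heterozygous and P0 lists only. Among 9 well-studied KRAB zinc finger genes outside the number range, Zfp445, Zfp568, Zfp809, Zfp819 and Prdm9 had a gene-end peak in all 6 lists and Zfp708, Zfp600 and Rex2 in none. These 5 and 3 of 9 stand near the shares of all genes. Zfp57, which protects imprinted methylation, lacked one in the E13.5 knockout list alone.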

How the data were processed

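ATAC-seq peak lists of the 8 groups were used as the authors deposited them: chromosome, start and end of each peak, a plain position with no score, 1 list per group. Per the submitters' processing notes, bcl2fastq 2.20, cutadapt 1.18, Bowtie2 2.3.4.1, deepTools 3.5.0 and HOMER 4.10 were used with mm10. The steps they served, the calling threshold, the treatment of duplicate and multiply aligned reads, any removal of regions, pooling of samples and read depth were not given in the sources used here. Absence of a peak thus has no known detection limit.

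Positions were read as GRCm38 and written 1-based. Genes and promoters came from RefSeq tables of GRCm38.p6. A peak was assigned by an overlap of at least 1 bp with windows of 1000 bp around each outer gene end, or with the body between them. Repeated promoter stretches of 50 bases were counted over the promoter table, and closest promoters were found with blastn 2.17.0 (e-value 1e-05). Python 3.11.15 and pandas 2.3.3 were used. Counts were checked against bedtools 2.31.1 and on simulated data, where 200 of 200 placed end peaks were found. Counts are descriptions of single lists, so no test was run.

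All members are accounted for, and those open in every list, differing between genotypes, restricted to 1 list or stage, or with body peaks are named. Members, gene lists and marker lists were chosen with earlier results of these data known. The alternatives were windows of 500 and 2000 bp, the peak midpoint, start-side ends only, members with shared windows left out, matching peaks within 500 bp in the other genotype, any annotated start, and the chromosome 2 and 4 clusters left out. The last pair was chosen after seeing the data. Protein features were planned and not computed.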

Additional observations from a re-analysis of the deposited data

Results flagged for a closer look

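The difference between genotypes in the number of Zfp900 to Zfp999 genes with a gene-end peak went opposite ways at the 2 embryonic stages: knockout minus heterozygous was -1 at E13.5 (Zfp937) and 5 at E16.5 (Zfp951, Zfp957, Zfp942, Zfp943 and Zfp994). The difference between stages, E16.5 minus E13.5, was likewise -4 in the heterozygous lists and 2 in the knockout lists. Both pairs rest on the same 4 lists and largely on the 4 genes that lacked a peak in the E16.5 heterozygous list alone, and neither difference between differences was tested, since each group has 1 list. The E13.5 difference rests on Zfp937 alone. With windows of 500 bp both E13.5 lists gave 33 members, and by peak midpoint both gave 34. By any annotated start both knockout lists gave 33. Zfp975 and Zfp948 had a 3′ end peak at E13.5 in knockouts only, which the count per gene does not show.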

How the results depend on the processing

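No paired analysis was possible because each group has 1 peak list and no value per sample; for the same reason no replicate could be left out, and stricter thresholds were not run because peaks carry no score. With windows of 500 bp, the knockout-only count at E13.5 was 1 in place of 0, the gain from E13.5 to E16.5 heterozygotes 2 in place of 1, the loss from E16.5 heterozygotes to P0 0 in place of 1 and the gain from P0 to P3 1 in place of 2. Body peaks were then counted at 12 members in E13.5 heterozygotes, 11 in E13.5 knockouts and 11 in E16.5 knockouts, in place of 7, 6 and 7. The other lists rose less, to 10 in E16.5 heterozygotes, 11 at P0 and 9 at P3, in place of 8, 8 and 6. With windows of 2000 bp, 5 members had one in E16.5 heterozygotes in place of 8, and the counts of the other lists fell by less. Counting peak midpoints gave 1 knockout-only member at E13.5 and a gain of 2 in heterozygotes from E13.5 to E16.5. Without members that share an end window with another gene, the E16.5 knockout-only count was 3 in place of 5, the heterozygous loss from E13.5 to E16.5 was 3 in place of 5 and the gain from E16.5 heterozygotes to P0 was 2 in place of 4. With start-side ends only, knockouts gained 1 member from E13.5 to E16.5 and lost 1 from E16.5 to P0, in place of 2 and 2. Taking any annotated start, an alternative chosen after seeing the data, gave a gain of 0 in both genotypes from E13.5 to E16.5 and a loss of 1 from E16.5 knockouts to P0. Without the chromosome 2 and 4 clusters, also chosen after seeing the data, body peaks per Mb were 9.39, 8.35, 10.4, 10.4, 8.35 and 8.35 in the 6 lists. Matching peaks within 500 bp in the other genotype moved 0 of 4 counts. Smaller changes are mostly not listed. Among them, the E16.5 knockout-only count was 6 with windows of 500 bp, in place of 5. It was 4 with start-side ends only and with any annotated start. The heterozygous loss from E13.5 to E16.5 was 6 with windows of 500 bp, in place of 5. Apart from the alternatives' own construction, the cause of these changes was not tested. Depth is unknown, so absence of a peak has no stated limit.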

Other observations

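Besides the chromosome 2 and 4 stretches, the autosomes held 9 other stretches of over 1 Mb with no peak in any list. The longest, at chr7:20039079-23309935 (3.27 Mb), held 85 protein-coding genes and 0 genes of the Zfp900 to Zfp999 range. At 3′ ends, Zfp975 and Zfp948 each had a peak in 5 lists (not E13.5 heterozygous), Zfp957 in E16.5 knockouts, Zfp949 in both E13.5 lists and Zfp958 at P0. Zfp940 shares an end window with Zfp790, and Zfp944 with Zfp758, so a peak there cannot be given to 1 gene.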
